A study of Mus musculus with 24 samples.

Results

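The Notch ligands Dll1, Dll4, Jag1 and Jag2, the receptors Notch1, Notch2, Notch3 and Notch4 and the target genes Hes1 and Hey1 were described across stromal cells of human oral tumours grown in mice. The 10 genes were chosen by name, through probe sets that name no other gene. Of these, 9 had such a probe set, 15 probe sets in all, out of 28898 probe sets that name 1 gene and 45141 probe sets on the array. Jag2 was not analysed here. All 9 genes lay above the level under which a gene was left out as dim (6.27 on the log2 scale), so they are 9 of the 11844 genes tested.

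The study grafted the human oral carcinoma cell line SCC25 orthotopically into immunodeficient NSG mice (NOD-SCIDγ), fed a diet rich in palmitic acid (PA), a saturated fatty acid, or a control diet. The tumour cells carried the short hairpin shEGR2_40.9 or shEGR2_38.9 against EGR2, an immediate-early transcription factor that also drives Schwann cell myelination, or shGAL against GAL, which encodes the neuropeptide galanin, or the non-targeting control PLKO. The measured RNA came from the mouse stroma, from a preparation that the labels call the neural fraction. The 8 groups, in order PA-rich then control diet with shEGR2_40.9, with shEGR2_38.9, with shGAL and with PLKO, had 3 arrays each. All groups share the SCC25 graft and the NSG host, which lacks T, B and natural killer cells, and the silenced genes are those of the tumour cells and not of the stroma that was measured. The age of the mice, the promoter that drives the hairpins and the number of animals behind an array are not given in the sources used here. The series calls the 3 arrays of a group technical replicates, so the p-values below measure only the spread between these arrays.

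In Notch signalling, a ligand of the Delta-like or Jagged family on 1 cell binds a Notch receptor on its neighbour, the receptor is cut by the protease Adam10 and then by the γ-secretase complex, and the released intracellular domain joins Rbpj in the nucleus to switch on target genes such as Hes1 and Hey1. In blood vessels, Dll4 marks sprouting tip cells and arteries, Notch4 is a receptor largely of endothelial cells, and Notch3 is the receptor of pericytes and vascular smooth muscle. In peripheral nerve, Notch signals between Schwann cells and their precursors and restrains myelination, for which Egr2 is required.

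Values are the authors' log2 RMA values, so a difference of 1 is a 2-fold difference in intensity, and levels of different probe sets are not comparable. Array medians lay between 6.71 and 6.81. The array of shEGR2_38.9, control diet, replicate 3 stood apart: its mean over all probe sets was 7.09, against 7.15 to 7.17 in the other arrays, and its Gapdh 3′ minus 5′ probe set difference, a sign of RNA degradation, was 0.76, against −0.12 to 0.08. Its correlation with the other arrays of its group was 0.978, against 0.986 to 0.996 elsewhere, and results on the Notch genes and the wider list that rest on it are given with and without it. Of the marker lists, Schwann and glial markers were above the dim level in 4 of 7 (S100b, Foxd3 and Gfap were not) and neuronal markers in 4 of 10 (Snap25, Elavl4, Nefl, Nefm, Uchl1 and Syt1 were not), while keratinocyte markers were in 9 of 9, endothelial markers in 14 of 15 (Sox17 was not) and markers of pericytes and smooth muscle in 6 of 7 (Kcnj8 was not). Macrophage markers were above it in 4 of 8 (Adgre1, Itgam, C1qa and Aif1 were not) and fibroblast markers in 3 of 7 (Col1a2, Pdgfra, Lum and Fap were not). Binding of human tumour transcripts to the mouse probe sets was not tested. In such bulk samples, fewer cells of a type and less RNA per cell cannot be told apart.

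**Figure D1:**
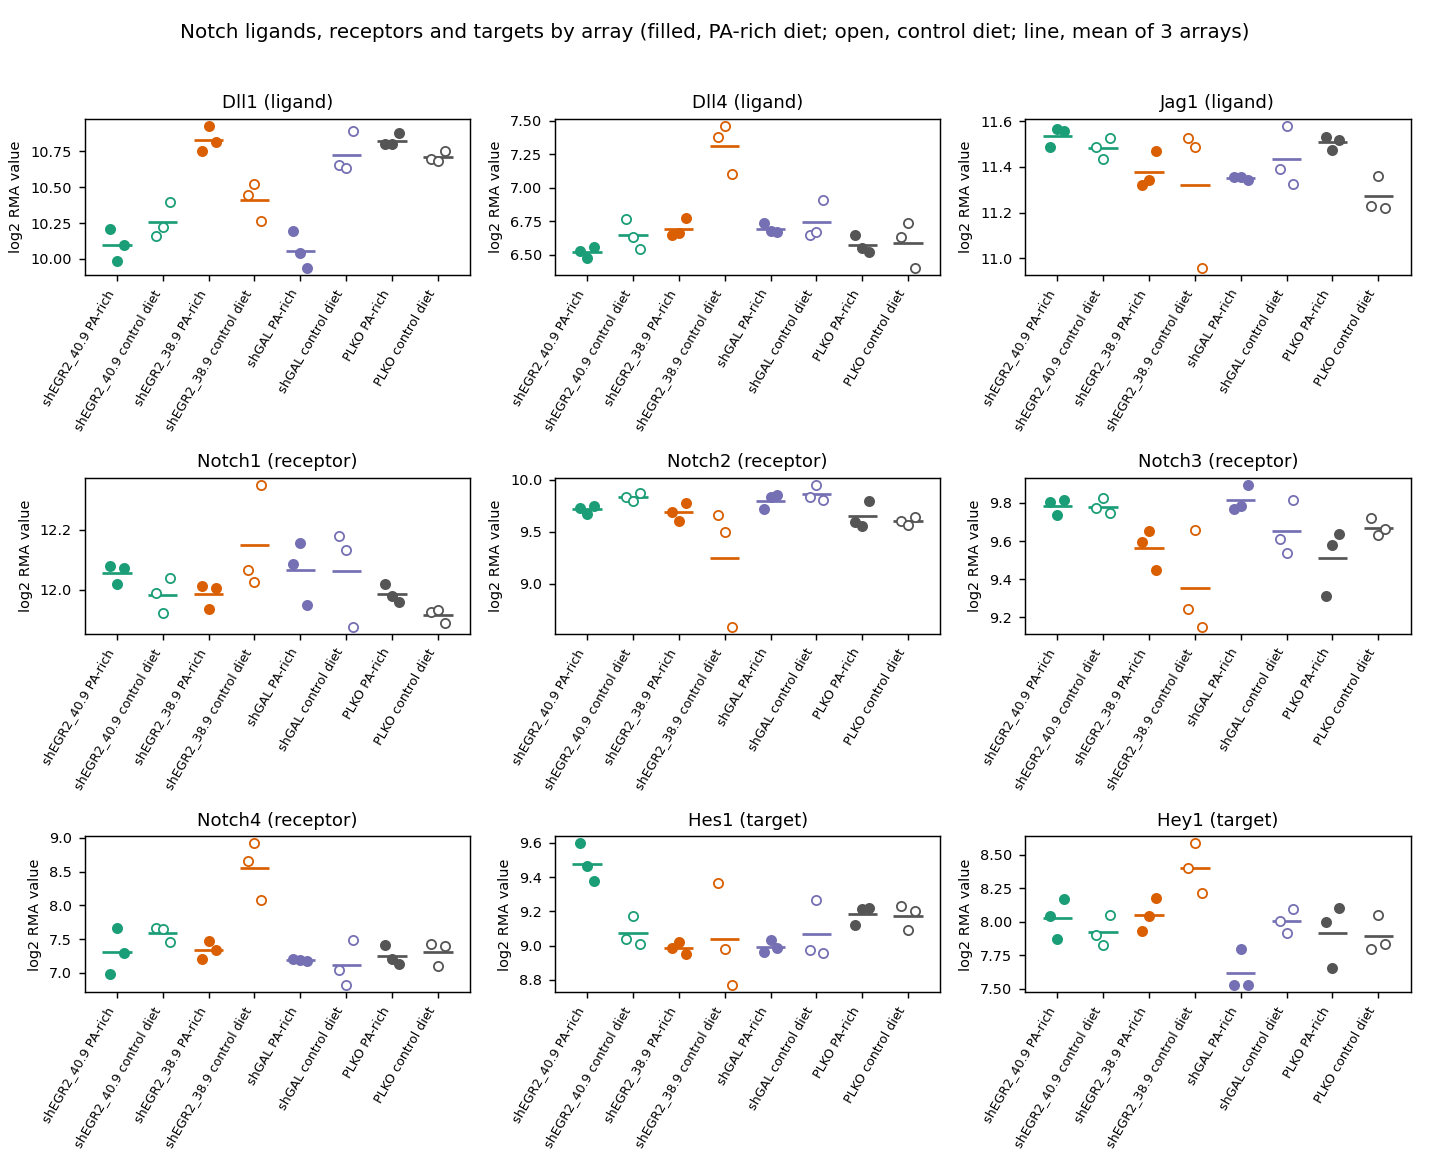
Log2 RMA value (vertical axis, scale differs between genes) of the 9 measured Notch genes in each of the 24 arrays; filled points are PA-rich diet, open points control diet, and lines the mean of 3 arrays. Dll4, Notch4 and Hey1 stand highest with shEGR2_38.9 on control diet, and Dll1 separates into a higher and a lower set of 4 groups.

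The 9 genes fell into different patterns over the 8 groups. Dll4, Notch4 and Hey1 were highest in shEGR2_38.9 tumours on control diet. Notch1 also had its highest mean there (12.15), but overlapped the next group in range. Dll1 followed another order, and Hes1 was highest in shEGR2_40.9 tumours on the PA-rich diet. Over the 8 group means, as a description, Pearson's r was 0.89 between Dll4 and Notch4, 0.78 between Notch4 and Hey1 and 0.72 between Dll4 and Hey1, against −0.04 between Dll1 and Dll4, −0.16 between Dll1 and Notch4 and 0.21 between Dll1 and Hey1. For Notch1 it was 0.72 with Dll4, 0.56 with Notch4 and 0.47 with Hey1. For Notch2 it was −0.85 with Notch4 and 0.81 with Notch3. The group means share arrays, scan batches and normalization, and the shEGR2_38.9 control group is the highest point for Dll4, Notch4, Hey1 and Notch1. The r values of Dll1 include the shGAL PA-rich group, whose fall was known when Dll1 was chosen, so nothing is read from them.

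The promoter windows of Dll4, Notch4 and Dll1 are shown (RefSeq, build GRCm38.p6, 250 bases, 5′ to 3′ on the gene's strand). Dll4 is at chr2:119325534-119325783 on the plus strand, Notch4 at chr17:34564045-34564294 on the plus strand, and Dll1 at chr17:15376933-15377182 on the minus strand. The Dll4 and Dll1 windows end at the base before the annotated gene start, and the last 9 bases of the Notch4 window lie past it. Capitals mark matches to CAGGAA or CCGGAA on either strand, a form of the core recognised by ETS factors such as the endothelial regulator Erg, a motif chosen after the values had been seen.
Dll4: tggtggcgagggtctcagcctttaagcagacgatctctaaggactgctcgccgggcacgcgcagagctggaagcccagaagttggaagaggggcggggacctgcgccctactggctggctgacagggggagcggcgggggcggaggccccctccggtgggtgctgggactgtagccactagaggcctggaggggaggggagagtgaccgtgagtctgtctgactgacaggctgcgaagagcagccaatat
Notch4: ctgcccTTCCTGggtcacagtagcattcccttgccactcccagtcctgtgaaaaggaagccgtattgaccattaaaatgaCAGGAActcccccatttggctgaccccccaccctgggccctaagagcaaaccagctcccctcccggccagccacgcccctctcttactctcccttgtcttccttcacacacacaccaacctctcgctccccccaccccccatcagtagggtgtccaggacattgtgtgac
Dll1: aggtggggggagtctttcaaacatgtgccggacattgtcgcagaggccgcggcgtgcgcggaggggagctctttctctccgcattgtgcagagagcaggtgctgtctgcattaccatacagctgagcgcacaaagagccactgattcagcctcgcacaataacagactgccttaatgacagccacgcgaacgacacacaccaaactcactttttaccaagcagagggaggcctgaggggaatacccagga
Notch4 had 2 matches, 244 and 170 bases upstream of the window's start site, Notch1 had 1 at 88 bases, and the windows of Dll4, Dll1, Jag1, Jag2, Notch2 and Notch3 had 0. Of 32851 promoters with windows of the same length, 35.1% held at least 1 match, so a match is common. The letters GTGGGAA, a core bound by Rbpj, were in none of the 9 windows of these 8 genes and in 5.42% of all promoters. The promoters of Hes1 and Hey1 were not used here.

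Dll1, a Delta-like ligand that acts in many tissues, was higher on the PA-rich diet with shEGR2_38.9 and lower with shGAL. With shEGR2_40.9 its log2 values were 10.21, 9.99 and 10.10 on the PA-rich diet and 10.16, 10.22 and 10.39 on control diet. With shEGR2_38.9 they were 10.75, 10.93 and 10.81 on the PA-rich diet and 10.45, 10.52 and 10.27 on control diet. These PA-rich arrays with shEGR2_38.9 all lay above the control arrays of the same hairpin, while the ranges with shEGR2_40.9 overlapped. With shGAL the values were 10.19, 10.04 and 9.94 on the PA-rich diet and 10.66, 10.63 and 10.89 on control diet. With PLKO they were 10.80, 10.80 and 10.88 on the PA-rich diet and 10.70, 10.68 and 10.75 on control diet. The shGAL arrays were lower on the PA-rich diet with no overlap. This was known when Dll1 was chosen and is given without a test: the difference was −0.67 ± 0.09 (SE, n = 3 each), 1.59-fold lower.

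Ordered by mean, shEGR2_38.9 on the PA-rich diet (10.83 ± 0.09, SD, n = 3), PLKO on the PA-rich diet (10.83 ± 0.05), shGAL on control diet (10.73 ± 0.14) and PLKO on control diet (10.71 ± 0.04) formed a higher set for Dll1, each overlapping the next in range. After a gap of 0.30 without overlap came shEGR2_38.9 on control diet (10.41 ± 0.13), shEGR2_40.9 on control diet (10.26 ± 0.12), shEGR2_40.9 on the PA-rich diet (10.10 ± 0.11) and shGAL on the PA-rich diet (10.06 ± 0.13), again each overlapping the next. With shEGR2_38.9, Dll1 rose by 0.42 ± 0.09 (SE) on the PA-rich diet, 1.34-fold (adjusted p = 0.00133, limma with Benjamini-Hochberg adjustment over 11844 genes, n = 3 each). Within the scan batches, each of which held both diets, the differences were 0.31, 0.41 and 0.55. The change was −0.16 ± 0.09 with shEGR2_40.9 (adjusted p = 0.321) and 0.11 with PLKO (adjusted p = 0.714). The diet effect differed between the EGR2 hairpins by 0.58 ± 0.13 (shEGR2_38.9 minus shEGR2_40.9, adjusted p = 0.00668). The differences of diet effects that contain the known shGAL fall were 1.09 ± 0.13 for shEGR2_38.9 minus shGAL, 0.51 ± 0.13 for shEGR2_40.9 minus shGAL and −0.78 ± 0.13 for shGAL minus PLKO, given as values only.

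Against PLKO on the same diet, Dll1 was lower with shEGR2_40.9 on both diets, with differences of −0.73 ± 0.09 on the PA-rich diet (1.66-fold, adjusted p = 2.68e-05) and −0.45 ± 0.09 on control diet (1.37-fold, adjusted p = 0.00127). With shEGR2_38.9 the difference was 0.00 on the PA-rich diet and −0.30 ± 0.09 on control diet (adjusted p = 0.0132). Without the array that stood apart, the last value was −0.23 (adjusted p = 0.0697) and did not pass. On the PA-rich diet the 2 EGR2 hairpins differed by 0.73 ± 0.09 (shEGR2_38.9 minus shEGR2_40.9, adjusted p = 1.6e-05), so the mean of both, −0.36 ± 0.08 against PLKO (adjusted p = 0.0169), combines unequal values. With the scan batch as a block the mean was −0.32 (adjusted p = 0.114), and the call also ended without PA-rich replicate 2 of shEGR2_40.9 (adjusted p = 0.0518) or any PA-rich array of PLKO (0.0691 to 0.125). With shGAL, Dll1 differed from PLKO by −0.77 ± 0.09 on the PA-rich diet, which rests on the known arrays, and by 0.02 on control diet (adjusted p = 0.939). In the 1 scan batch each hairpin shared with PLKO, with 1 array a side, the differences of Dll1 on the PA-rich and control diets were −0.59 and −0.54 with shEGR2_40.9, 0.13 and −0.17 with shEGR2_38.9, and −0.94 and 0.14 with shGAL.

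Dll4, the ligand of endothelial tip cells, moved with 1 EGR2 hairpin. With shEGR2_38.9 its log2 values were 6.64, 6.66 and 6.77 on the PA-rich diet and 7.38, 7.46 and 7.10 on control diet, with no overlap. With shEGR2_40.9 they were 6.52, 6.47 and 6.56 on the PA-rich diet and 6.77, 6.63 and 6.54 on control diet, with overlap. The shGAL arrays lay between 6.67 and 6.73 on the PA-rich diet and between 6.65 and 6.91 on control diet, and the PLKO arrays between 6.52 and 6.65 on the PA-rich diet and between 6.40 and 6.73 on control diet. The shEGR2_38.9 control group (7.31 ± 0.19, SD) stood 0.57 above the next, shGAL on control diet, without overlap, and the other 7 groups ran down to 6.52 with shEGR2_40.9 on the PA-rich diet, each overlapping its neighbour.

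Dll4 fell on the PA-rich diet with shEGR2_38.9, with a change of −0.62 ± 0.10 (SE, n = 3 each), 1.54-fold (adjusted p = 4.09e-05), and the differences within scan batches were −0.74, −0.80 and −0.33. The change was −0.13 with shEGR2_40.9 (adjusted p = 0.502), −0.05 with shGAL and −0.02 with PLKO. The change with shEGR2_38.9 differed from that with shEGR2_40.9 by −0.49 ± 0.13 (adjusted p = 0.0296), from that with shGAL by −0.57 ± 0.13 (adjusted p = 0.00553) and from that with PLKO by −0.61 ± 0.13 (adjusted p = 0.00371). The second Dll4 probe set gave −0.99 ± 0.18 for the shEGR2_38.9 diet change (adjusted p = 0.000343 over all probe sets with 1 symbol). With shEGR2_40.9 that probe set had means of 6.34 ± 0.21 (SD) on the PA-rich diet and 6.67 ± 0.20 on control diet, and the arrays overlapped. On control diet Dll4 was higher with shEGR2_38.9 than with PLKO by 0.73 ± 0.10 (1.65-fold, adjusted p = 4.59e-06), and by 0.73 in the 1 scan batch they shared. The diet change and this difference share the 3 control arrays of shEGR2_38.9. Against PLKO on the PA-rich diet, neither EGR2 hairpin moved Dll4 past the threshold.

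Jag1, a Jagged-family ligand of several stromal cell types, did not pass in any of the 22 comparisons through the probe set used. Its 24 values lay between 10.96 and 11.58, and each group overlapped the next in order of mean, from 11.54 ± 0.04 with shEGR2_40.9 on the PA-rich diet to 11.27 ± 0.08 with PLKO on control diet (SD, n = 3). The PA-rich diet change with PLKO was 0.24 ± 0.10 (SE, adjusted p = 0.377), although the 3 PA-rich arrays (11.53, 11.47 and 11.52) lay above the 3 control arrays (11.23, 11.36 and 11.22). The lowest Jag1 value, 10.96, belonged to the array that stood apart. Without that array, Jag1 was higher than with PLKO on control diet by 0.23 with shEGR2_38.9 (adjusted p = 0.0169) and by 0.21 with shEGR2_40.9 (adjusted p = 0.0241), a call that the full data do not give. A second Jag1 probe set passed in no comparison either, and it went the other way with shGAL: its values were 11.22, 11.19 and 11.20 on the PA-rich diet and 11.04, 10.51 and 11.09 on control diet, without overlap. Its change there was 0.32 ± 0.11 (adjusted p = 0.163 over all probe sets with 1 symbol), against −0.08 for the probe set used. With the mean of both probe sets, Jag1 was higher for the mean of the EGR2 hairpins than with PLKO on control diet by 0.19 (adjusted p = 0.0476).

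Notch4, the mainly endothelial receptor, had the largest changes of the 9 genes over the 22 comparisons. With shEGR2_38.9 its log2 values were 7.21, 7.47 and 7.33 on the PA-rich diet and 8.66, 8.92 and 8.08 on control diet. With shEGR2_40.9 they were 6.99, 7.66 and 7.30 on the PA-rich diet and 7.67, 7.64 and 7.45 on control diet. The shEGR2_38.9 control arrays lay above all other arrays, and the shEGR2_40.9 groups overlapped. With shGAL the values were 7.20, 7.19 and 7.17 on the PA-rich diet and 7.05, 6.81 and 7.48 on control diet, and with PLKO they were 7.41, 7.21 and 7.14 on the PA-rich diet and 7.43, 7.09 and 7.40 on control diet. In order of mean, shEGR2_38.9 on control diet (8.55 ± 0.43, SD) was followed by shEGR2_40.9 on control diet (7.59 ± 0.12).

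Notch4 fell on the PA-rich diet with shEGR2_38.9, with a change of −1.22 ± 0.18 (SE, n = 3 each), 2.33-fold (adjusted p = 2.75e-05), with within-batch differences of −1.46, −1.44 and −0.75. The last of these holds the array that stood apart, and without that array the change was −1.45. The change with shEGR2_40.9 was −0.27 ± 0.18 (adjusted p = 0.428), with batch differences of −0.68, 0.02 and −0.15, and it was 0.08 with shGAL and −0.06 with PLKO. The change with shEGR2_38.9 differed from that with shEGR2_40.9 by −0.94 ± 0.25 (adjusted p = 0.0281), from that with shGAL by −1.29 ± 0.25 (adjusted p = 0.00117) and from that with PLKO by −1.16 ± 0.25 (adjusted p = 0.00331). For the mean of the 2 EGR2 hairpins the difference from PLKO was −0.69 ± 0.22 (adjusted p = 0.0499), at the threshold, and the adjusted p was 0.0595 with the scan batch as a block. On control diet Notch4 was 2.37-fold higher with shEGR2_38.9 than with PLKO (1.25 ± 0.18, adjusted p = 1.54e-05), and the difference was 1.82 in the 1 scan batch they shared. A further, dim Notch4 probe set gave −1.32 for the shEGR2_38.9 diet change (adjusted p = 5.11e-06) and 1.40 against PLKO on control diet (adjusted p = 1.71e-06), and the remaining one, also dim, gave −0.15 for the diet change and was not past the threshold.

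Against PLKO or for the diet, Notch1, Notch2 and Notch3 passed the threshold once each, with shEGR2_38.9, and none of these 3 calls held without the array that stood apart. Notch1, a receptor of many cell types, lay between 11.88 and 12.35 in all 24 arrays, with its highest value in the array that stood apart, and its group means ran from 12.15 ± 0.18 with shEGR2_38.9 to 11.92 ± 0.02 with PLKO, both on control diet (SD, n = 3). It was higher with shEGR2_38.9 than with PLKO on control diet by 0.23 ± 0.08 (adjusted p = 0.0399), but by 0.13 without that array (adjusted p = 0.226) and by 0.15 with the scan batch as a block (adjusted p = 0.185), and its second probe set did not pass in any comparison. Notch2, which shares many ligands with Notch1, had values of 9.69, 9.60 and 9.77 with shEGR2_38.9 on the PA-rich diet and 9.66, 9.50 and 8.59 on control diet. Only the last control value, from the array that stood apart, lay below all other values of Notch2, whose remaining 7 group means ran from 9.86 with shGAL on control diet to 9.60 with PLKO on control diet, each overlapping the next. The Notch2 rise of 0.44 ± 0.16 on the PA-rich diet with shEGR2_38.9 (adjusted p = 0.0487) became 0.11 without that array (adjusted p = 0.376), and with the scan batch as a block the adjusted p was 0.0617.

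Notch3, the receptor of pericytes and vascular smooth muscle, was lower with shEGR2_38.9 than with PLKO on control diet, a difference of −0.32 ± 0.11 (SE, adjusted p = 0.0248). Its values were 9.24, 9.66 and 9.15 with shEGR2_38.9 and 9.72, 9.63 and 9.66 with PLKO, and the groups overlapped. The Notch3 means of the 8 groups ran from 9.82 ± 0.07 with shGAL on the PA-rich diet to 9.35 ± 0.27 with shEGR2_38.9 on control diet (SD, n = 3). Without the array that stood apart the difference was −0.22 (adjusted p = 0.139), and with the scan batch as a block it was −0.23 (adjusted p = 0.0886). A second Notch3 probe set gave −0.29 ± 0.15 (adjusted p = 0.173 over all probe sets with 1 symbol) and passed in no comparison. In the same comparison, where Notch3 was lower, 3 of 6 tested pericyte and smooth muscle markers rose, and 11.2% of all genes did. These markers were Rgs5 (by 0.68), Acta2 (by 0.56) and Myh11 (by 1.92). The array means of that list lay between 7.50 and 7.96 with shEGR2_38.9 and between 7.23 and 7.34 with PLKO on control diet, and their part in the Notch3 difference was not tested. With shGAL on the PA-rich diet, Notch3 differed from PLKO by 0.31 ± 0.11 (adjusted p = 0.06), and by 0.38 with the scan batch as a block (adjusted p = 0.0162), and without the array that stood apart the adjusted p was 0.0313. With the scan batch as a block, Notch3 also passed with shEGR2_40.9 minus PLKO on the PA-rich diet (0.43, adjusted p = 0.0203, against 0.28 with an adjusted p of 0.168 without the block) and for the difference of the diet effect, shEGR2_38.9 minus PLKO (0.38, adjusted p = 0.0461, against an adjusted p of 0.10 without the block).

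The target genes did not move together. Hes1, a repressor that Notch switches on in many cell types, had values of 9.60, 9.46 and 9.38 with shEGR2_40.9 on the PA-rich diet and 9.04, 9.17 and 9.01 on control diet, with no overlap. The other hairpins gave means between 8.99 and 9.19 on both diets, and the shEGR2_40.9 PA-rich group (9.48 ± 0.11, SD) stood 0.29 above the next, PLKO on the PA-rich diet, without overlap. The rise with shEGR2_40.9 was 0.41 ± 0.11 (SE, n = 3 each), 1.32-fold (adjusted p = 0.0184), with batch differences of 0.56, 0.29 and 0.37. Leaving out any of 4 of the 6 arrays behind it ended the call: PA-rich replicate 1 (adjusted p = 0.104) or 2 (0.0526), or control replicate 1 (0.0643) or 3 (0.0756). Among PA-rich tumours Hes1 was lower with shEGR2_38.9 than with shEGR2_40.9, a difference of −0.49 ± 0.11 (adjusted p = 0.00752), and the change with shEGR2_38.9 was −0.05 (adjusted p = 0.77). The diet change of Hes1 with shEGR2_40.9 differed from that with shGAL by 0.48 (adjusted p = 0.0558), and the adjusted p was 0.0438 with the scan batch as a block.

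Hey1, a Notch target of endothelial and other cells, had values of 7.93, 8.04 and 8.17 with shEGR2_38.9 on the PA-rich diet and 8.40, 8.58 and 8.22 on control diet, and these did not overlap. With shGAL the values were 7.52, 7.80 and 7.53 on the PA-rich diet and 8.00, 7.91 and 8.10 on control diet, again without overlap. Hey1 fell with shEGR2_38.9, with a change of −0.35 ± 0.12 (SE, adjusted p = 0.0339, batch differences −0.47, −0.54 and −0.04), and with the scan batch as a block the adjusted p was 0.0532. Leaving out PA-rich replicate 1 or 2, or control replicate 1 or 2, of this hairpin also ended the call, with adjusted p between 0.0561 and 0.14. With shGAL the change was −0.39 ± 0.12 (adjusted p = 0.0911), with shEGR2_40.9 0.10 and with PLKO 0.02. The diet changes with shEGR2_38.9 and shGAL differed by 0.03 ± 0.17. Against PLKO on control diet, Hey1 was higher with shEGR2_38.9 by 0.51 ± 0.12 (1.42-fold, adjusted p = 0.00228), and by 0.53 in the shared scan batch.

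**Figure D2:**
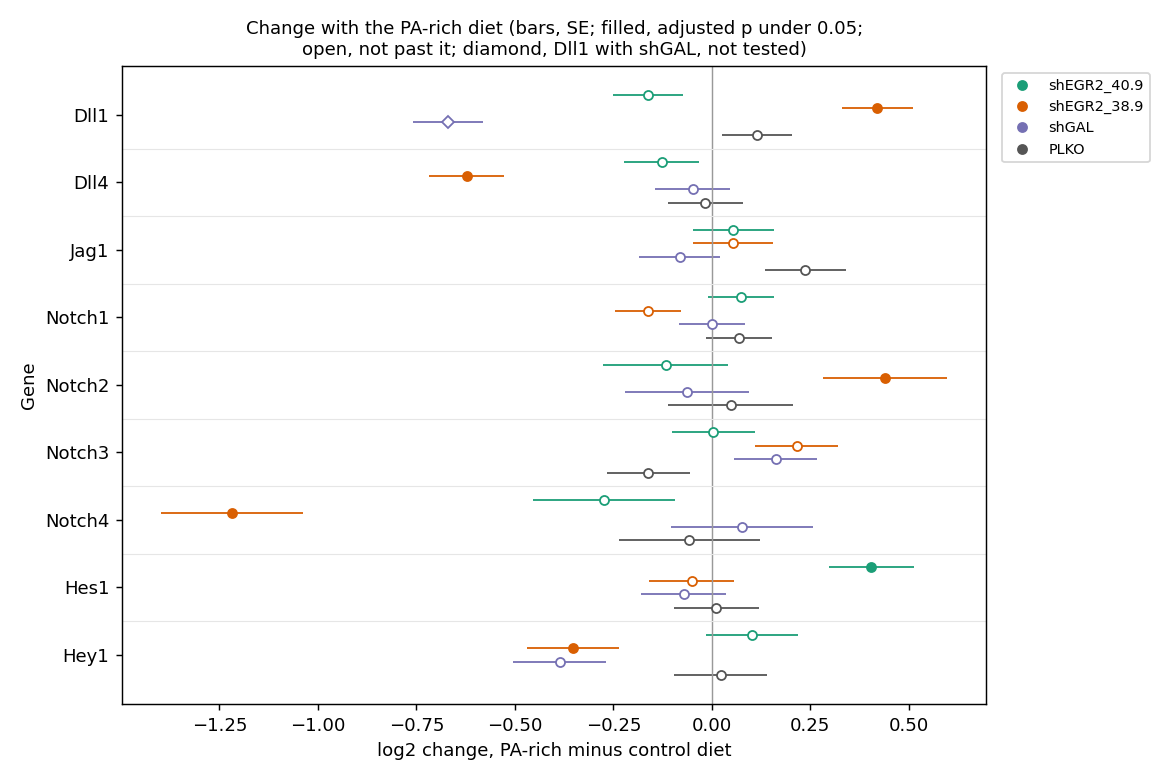
Log2 change on the PA-rich diet minus control diet (horizontal axis) for each of the 9 genes and each hairpin; bars are the SE of the model, filled points have an adjusted p under 0.05, and the diamond is the untested shGAL value of Dll1. With shEGR2_38.9, Dll4, Notch4 and Hey1 lie left of 0 and Dll1 and Notch2 right of it, while the points of PLKO are all open.

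Counted over the 9 genes, the diet moved 1 with shEGR2_40.9 (Hes1, higher), where 8.95% of all genes tested passed and 3.73% passed as higher. With shEGR2_38.9 it moved 5, against 22.1% of all genes: Dll1 and Notch2 were higher (13.8% of all genes were) and Dll4, Notch4 and Hey1 lower (8.30% were). The median change of the 9 genes there was −0.05, against 0.07 over all genes. With shGAL the 1 gene past the threshold was Dll1, the fall that was known, where 1.94% of all genes passed and 0.608% as lower, and nothing is read from that count. With PLKO limma called 0 of 9, where 1.18% of all genes passed, and Jag1 alone had an unadjusted p under 0.05. The medians of the 9 genes with shEGR2_40.9, shGAL and PLKO were 0.00, −0.06 and 0.02, against 0.03, −0.01 and 0.01 over all genes.

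The difference of the diet effect between hairpins passed for 1 of 9 genes for the mean of the EGR2 hairpins minus PLKO (Notch4 as lower, where 9.74% of all genes passed and 4.57% as lower). In the differences that hold shGAL, Dll1 lies past the threshold through the known arrays, so its calls there are listed for completeness and nothing is read from them. For shGAL minus PLKO the 1 gene was Dll1 as lower (1.33% of all genes, 0.321% as lower). For the EGR2 hairpins minus shGAL (12.0% of all genes) Notch4 passed as lower (6.68%), beside Dll1 as higher (5.28%). In this comparison Notch4 differed by −0.82 ± 0.22 (adjusted p = 0.0154) and Dll1, with the known shGAL arrays in it, by 0.80 ± 0.11. Without the array that stood apart, Dll4 also passed against PLKO (−0.41, adjusted p = 0.0096) and against shGAL (−0.38, adjusted p = 0.015), and Jag1 against PLKO (−0.27, adjusted p = 0.0237). By single hairpin, shEGR2_38.9 minus PLKO passed for 2, Dll4 and Notch4, both lower (13.4% of all genes, 5.52% as lower). The difference shEGR2_38.9 minus shGAL passed for Dll4 and Notch4 as lower (12.8% of all genes, 6.33% as lower), beside Dll1 as higher (6.47%). For shEGR2_40.9 minus shGAL the 1 gene was Dll1 as higher (8.26% of all genes, 2.96% as higher), and for shEGR2_40.9 minus PLKO for 0 by limma (4.16% of all genes), with 2 at an unadjusted p under 0.05, Dll1 and Hes1. Between the EGR2 hairpins 3 genes passed, where 5.57% of all genes did, Dll1 as higher (3.77%) and Dll4 and Notch4 as lower (1.81%).

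Against PLKO on control diet, 6 of 9 genes passed with shEGR2_38.9, against 30.4% of all genes: Dll4, Notch1, Notch4 and Hey1 were higher (11.2% of all genes were) and Dll1 and Notch3 lower (19.1% were). Without the array that stood apart, Dll1, Notch1 and Notch3 no longer passed and Jag1 did. With shEGR2_40.9 the 1 gene past the threshold on control diet was Dll1, as lower, against 12.1% of all genes and 4.94% as lower. For the mean of both EGR2 hairpins 3 passed (25.2% of all genes, 10.8% as higher and 14.5% as lower), Dll4 by 0.39 ± 0.08 (adjusted p = 0.0012), Notch4 by 0.76 ± 0.16 (adjusted p = 0.000901) and Dll1 by −0.38 ± 0.08 (adjusted p = 0.000917). Without the same array, Jag1 (0.22, against 0.13 with it, adjusted p = 0.0057) and Hey1 (0.32, against 0.27 with it, adjusted p = 0.0241) also passed for this mean, and Jag1 and Notch2 (0.23, adjusted p = 0.0232) for shEGR2_40.9 alone. With shGAL on control diet limma called 0 of 9, where 17.0% of all genes passed, and 0 of 9 had an unadjusted p under 0.05, although without that array of another group Notch2 passed (0.26, adjusted p = 0.00906).

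Among PA-rich tumours, shEGR2_38.9 minus PLKO gave 0 of 9 by limma, and 0 with an unadjusted p under 0.05, where 0.625% of all genes passed. With shEGR2_40.9 the 1 gene was Dll1, as lower (4.02% of all genes, 1.49% as lower), for the mean of the EGR2 hairpins it was again Dll1 (1.11% of all genes, 0.321% as lower), and with shGAL it was Dll1, from the known arrays (12.4% of all genes, 4.77% as lower), from which nothing is read. Between the EGR2 hairpins, shEGR2_38.9 minus shEGR2_40.9, 2 genes passed on the PA-rich diet (5.01% of all genes), Dll1 as higher (2.79%) and Hes1 as lower (2.21%). On control diet 5 passed (11.9% of all genes, 4.32% as higher and 7.57% as lower): Dll4 by 0.67, Notch4 by 0.97 ± 0.18 and Hey1 by 0.48 ± 0.12 as higher, and Notch2 by −0.59 ± 0.16 and Notch3 by −0.43 as lower. When the array that stood apart was left out, Notch2 differed by −0.26 (adjusted p = 0.037) and Notch3 by −0.33 (adjusted p = 0.055). The hairpin comparisons on 1 diet share the PLKO arrays of that diet, so their values stand side by side and are not independent.

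**Figure D3:**
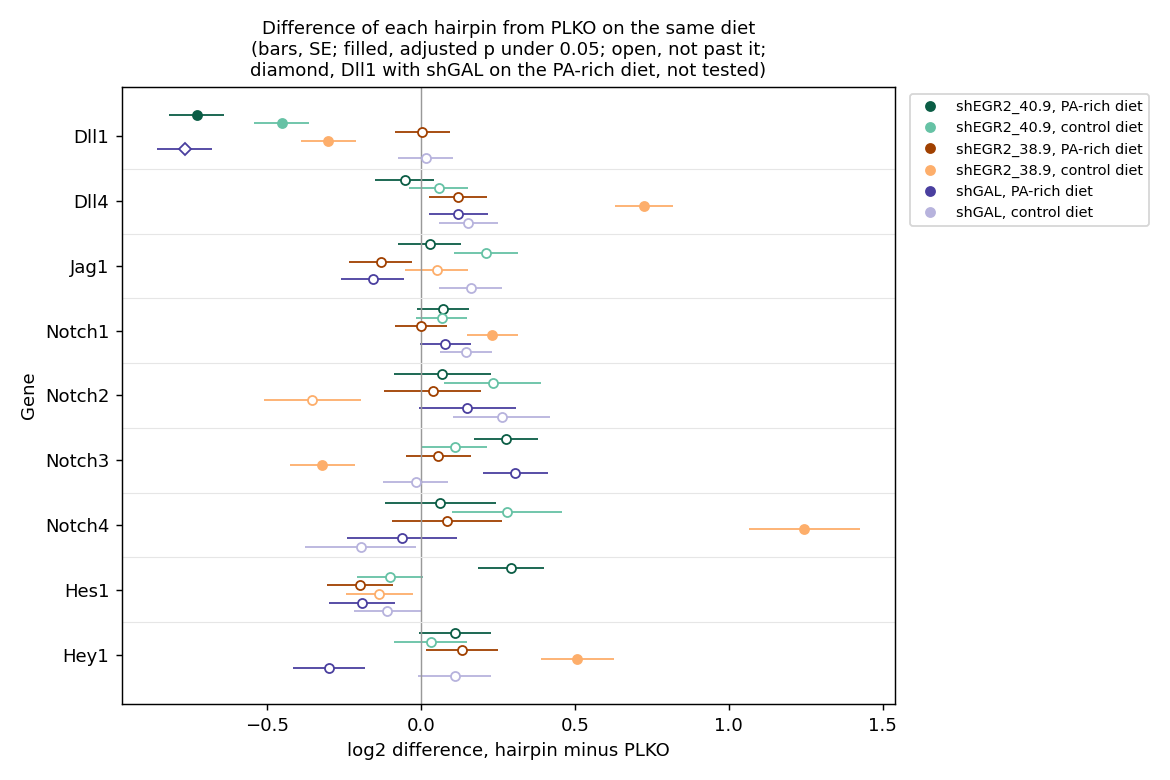
Log2 difference of each hairpin from PLKO on the same diet (horizontal axis) for the 9 genes; bars are the SE, filled points have an adjusted p under 0.05, and the diamond is the untested value of Dll1 with shGAL on the PA-rich diet. The points furthest right are Notch4 and Dll4 with shEGR2_38.9 on control diet, and the points furthest left are Dll1 with shEGR2_40.9 and shGAL on the PA-rich diet.

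Dll4 and Notch4 are known from endothelial cells, so the 15 endothelial markers are given beside them. Their mean per array lay between 7.71 and 7.90 with shEGR2_40.9 on the PA-rich diet and between 8.72 and 8.97 on control diet. With shEGR2_38.9 it lay between 7.91 and 8.10 on the PA-rich diet and between 8.84 and 9.39 on control diet. With shGAL it lay between 7.63 and 8.09 on both diets, and with PLKO between 7.54 and 7.81 on the PA-rich diet and between 7.72 and 7.97 on control diet. Control-diet tumours with either EGR2 hairpin thus had the highest marker levels, a pattern of these same arrays that was known beforehand and is no independent evidence.

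With the PA-rich diet, 12 of 14 tested endothelial markers fell under shEGR2_40.9 (median change −1.06) and 13 of 14 with shEGR2_38.9 (median −1.40), among them the junction gene Cdh5 (−1.58 with shEGR2_40.9 and −1.71 with shEGR2_38.9) and the receptor gene Tie1 (−1.78 with shEGR2_40.9 and −1.92 with shEGR2_38.9). Over all genes, 8.95% passed in either direction with shEGR2_40.9, and 22.1% with shEGR2_38.9, 8.30% as lower. With shGAL and with PLKO limma called 0 of 14, where 1.94% and 1.18% of all genes passed. The medians were 0.02 and −0.20, with 0 and 3 markers at an unadjusted p under 0.05. With shEGR2_40.9, where 12 markers fell, the values for Dll4 and Notch4 were −0.13 and −0.27, neither past the threshold. Dll4 lay near the dim level of 6.27 there (means 6.52 on the PA-rich and 6.65 on control diet), and the part of this low level in its change was not tested. The second Dll4 probe set had means of 6.34 and 6.67. The difference of the diet effect between the EGR2 hairpins, which passed as lower for Dll4 and Notch4, passed as higher for 1 of the 14 markers and as lower for 0 (median −0.31), and as lower for 2 without the array that stood apart. With all arrays, 3.77% of all genes passed there as higher and 1.81% as lower. On control diet, where Dll4, Notch4 and Hey1 were higher with shEGR2_38.9 than with shEGR2_40.9, 6 of 14 markers were higher too, with a median of 0.41. Of all genes, 4.32% were higher there.

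Macrophage markers moved with both EGR2 hairpins and pericyte and smooth muscle markers with shEGR2_38.9, while the fibroblast markers did not move alike. The mean of the 8 macrophage markers per array lay between 6.23 and 6.26 with shEGR2_40.9 on the PA-rich diet and between 6.54 and 6.68 on control diet. With shEGR2_38.9 it lay between 6.32 and 6.33 on the PA-rich diet and between 6.67 and 6.76 on control diet, while the shGAL and PLKO arrays lay between 6.25 and 6.40 on either diet. Of the 4 tested, the mannose receptor gene Mrc1 fell by 2.35 and the coreceptor gene Cd14 by 0.88 on the PA-rich diet with shEGR2_40.9, and Mrc1 fell by 2.26, Cd14 by 0.73 and Cd68 by 0.50 with shEGR2_38.9. Mrc1 fell by 0.70 with PLKO too (adjusted p = 0.0341). Over all genes, 8.95% passed for the diet with shEGR2_40.9, 22.1% with shEGR2_38.9 and 1.18% with PLKO. Against PLKO on control diet, Cd68, Mrc1 and Cd14 were higher with either EGR2 hairpin, Mrc1 by 1.36 with shEGR2_40.9 and by 2.38 with shEGR2_38.9. Of all genes, 12.1% passed there with shEGR2_40.9 and 30.4% with shEGR2_38.9. With shGAL minus PLKO on control diet, 3 of the 4 tested macrophage markers had an unadjusted p under 0.05 by limma.

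The mean of the 7 fibroblast markers lay between 6.90 and 7.16 with shEGR2_40.9 on the PA-rich diet and between 7.40 and 7.61 on control diet. With shEGR2_38.9 it lay between 6.96 and 7.13 on the PA-rich diet. On control diet it was 7.62, 7.41 and, in the array that stood apart, 7.06. With shGAL it ran from 6.82 to 6.95 on either diet, and with PLKO from 6.89 to 7.46. Of the 3 tested, the surface protein gene Thy1 fell by 0.50 on the PA-rich diet with shEGR2_40.9 and by 0.91 with shEGR2_38.9. The proteoglycan gene Dcn fell by 0.43 with shEGR2_40.9 but rose by 0.44 with shEGR2_38.9, and the collagen gene Col1a1 did not pass with either. Over all genes, 8.95% passed for the diet with shEGR2_40.9 and 22.1% with shEGR2_38.9. The shEGR2_38.9 values include the array that stood apart, and those of single markers without it are not given here. The pericyte and smooth muscle mean with shEGR2_38.9 lay between 7.03 and 7.33 on the PA-rich diet and between 7.50 and 7.96 on control diet. With shEGR2_40.9 the diets overlapped (7.58 to 7.75 and 7.58 to 7.89). The keratinocyte mean with shEGR2_38.9 lay between 10.17 and 10.44 on the PA-rich diet. On control diet it lay between 9.78, in the array that stood apart, and 10.22. The part of all these markers in the changes of the Notch genes was not tested.

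As a description over the 8 group means, r with the mean of the 14 tested markers was 0.90 for Notch4, 0.76 for Dll4, 0.64 for Hey1 and 0.42 for Notch1. It was −0.25 for Dll1, −0.20 for Jag1, −0.56 for Notch2, −0.40 for Notch3 and −0.31 for Hes1. The points share arrays and normalization. The part of the endothelial markers in the changes of Dll4, Notch4 and Hey1 was not tested. The shGAL fall of Dll1 was known when the gene was chosen, so nothing is read from its r. In shGAL tumours the endothelial mean ran from 7.63 to 8.09 on either diet.

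**Figure D4:**
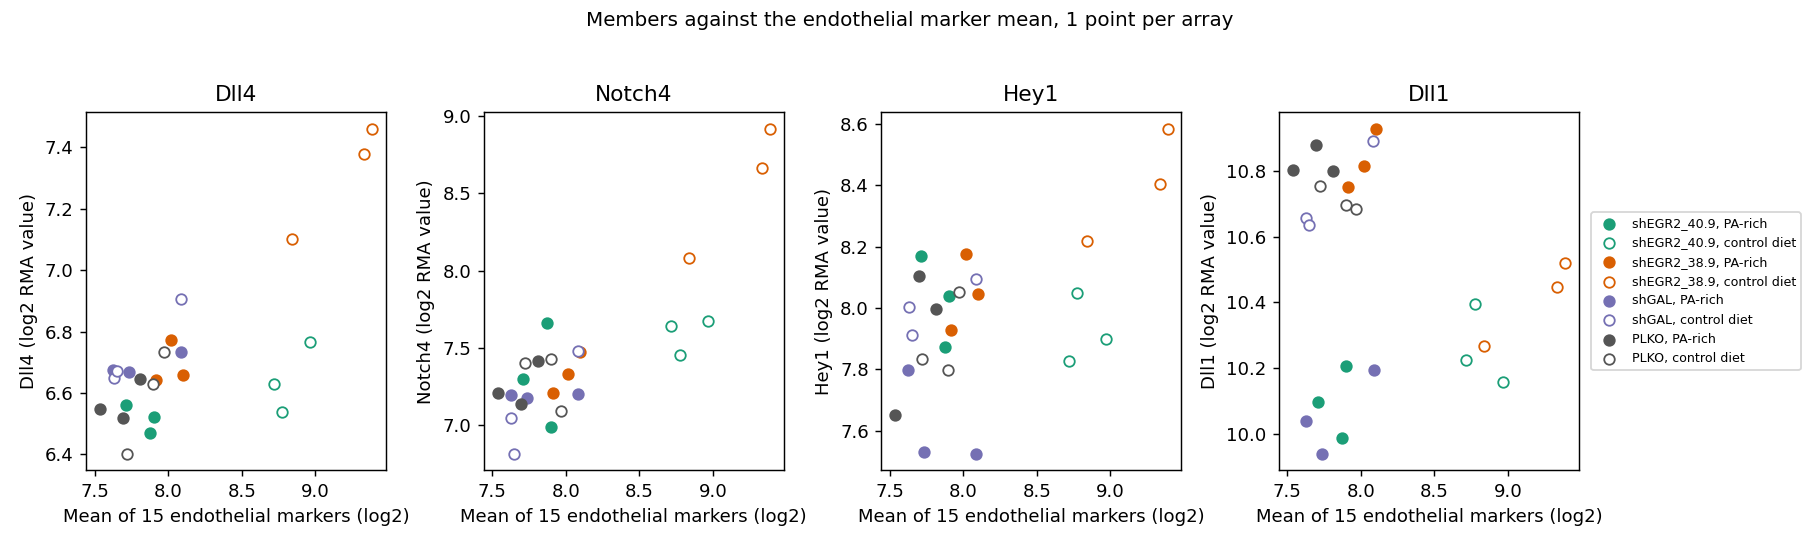
Log2 RMA value of Dll4, Notch4, Hey1 and Dll1 (vertical axes) against the mean log2 value of 15 endothelial markers (horizontal axis), 1 point per array, filled for the PA-rich diet and open for control diet. The open points of both EGR2 hairpins lie at marker means of 8.72 and above, but only those of shEGR2_38.9 lie above the rest for Dll4 and Notch4.

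Of a wider list of 52 genes of the pathway, 45 had a probe set of their own and 42 were tested. On the PA-rich diet with shEGR2_38.9, 8 of 42 passed, 1 as higher and 7 as lower. Of all genes 22.1% passed, 13.8% as higher and 8.30% as lower. The total lies near the share over all genes, and nothing is read about the list from it or from the counts by role. Those that fell were the fringe glycosyltransferases Lfng (−0.33) and Mfng (−0.53), which tune the receptor's choice of ligand, the ligand ubiquitin ligase Mib2 (−0.29), the γ-secretase subunit Psen2 (−0.55), the corepressor Tle1 (−0.42), and the targets Heyl (−0.63), known from vascular smooth muscle, and Gata2 (−0.58). The Deltex-family gene Dtx3l rose by 0.50. By role, this was 2 of 5 glycosyltransferases, 1 of 4 ubiquitin ligases, 1 of 7 proteases, 0 of 4 genes of the nuclear complex that includes Rbpj, 1 of 4 corepressors, 1 of 8 inhibitors and turnover genes, 2 of 9 other targets and 0 of 1 other ligand. The list's median change was 0.04, against 0.07 over all genes. Without the array that stood apart, 2 passed as higher and 10 as lower, and Lfng (−0.18, adjusted p = 0.266) and Dtx3l (0.45, adjusted p = 0.0895) no longer did.

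With shEGR2_40.9, 2 of the 42 passed for the diet, against 8.95% of all genes: Psen2 fell too (−0.56, adjusted p = 0.0011), and the fringe gene Rfng rose by 0.31 (adjusted p = 0.023). Psen2 had 8.41, 8.45 and 8.44 with shEGR2_40.9 on the PA-rich diet and 8.97, 8.95 and 9.07 on control diet. With shEGR2_38.9 it had 8.42, 8.25 and 8.31 on the PA-rich diet and 9.11, 9.02 and 8.50 on control diet. Neither pair of groups overlapped, and Psen2 was the 1 gene of the wider list past the threshold as lower with both EGR2 hairpins. Heyl had 6.31, 6.37 and 6.74 with shEGR2_38.9 on the PA-rich diet and 7.20, 7.39 and 6.71 on control diet, with overlap only through the array that stood apart. Mfng had 7.49, 7.44 and 7.34 with shEGR2_38.9 on the PA-rich diet and 8.05, 7.84 and 7.98 on control diet, without overlap.

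With shGAL the 1 gene of the wider list past the threshold on the PA-rich diet, where 1.94% of all genes passed, was Lfng, the fringe gene whose enzyme favours Delta-like over Jagged ligands. Its values were 6.74, 6.50 and 6.47 on the PA-rich diet and 7.25, 7.26 and 6.97 on control diet, without overlap, a change of −0.59 ± 0.11 (SE, adjusted p = 0.00714). With PLKO limma called 0 of the 42 genes for the diet, where 1.18% of all genes passed, and 6 had an unadjusted p under 0.05.

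Against PLKO, the counts of the wider list lay near or below the share over all genes, and nothing is read from them about the list. On control diet 12 of the 42 passed with shEGR2_38.9, where 30.4% of all genes did, 7 as higher (Mfng by 0.59, Mib2 by 0.29, Neurl1b by 0.88, Psen2 by 0.38, Spen by 0.25, Heyl by 0.62 and Gata2 by 0.58) and 5 as lower (Rfng by −0.25, Psenen by −0.21, Kat2a by −0.30, Dtx3l by −0.50 and Nrarp by −0.37). Without the array that stood apart, 9 passed as higher and 2 as lower, and Psenen (adjusted p = 0.193), Kat2a (0.151), Dtx3l (0.0741) and Nrarp (0.0993) no longer did. With the scan batch as a block, Mib2 (adjusted p = 0.0543), Spen (0.0565), Psenen (0.124) and Kat2a (0.145) did not pass. The list's median was −0.08, as over all genes.

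With shEGR2_40.9 on control diet, where 12.1% of all genes passed, there were 4 higher (Mfng by 0.35, Neurl1b by 0.62, Psen2 by 0.50 and Spen by 0.28) and 1 lower (Rfng by −0.45). On the PA-rich diet 0 of the 42 passed with shEGR2_38.9 by limma (0.625% of all genes), with 2 at an unadjusted p under 0.05. With shEGR2_40.9, 2 passed there as higher (Neurl1b by 0.49 and Nrarp by 0.40, where 4.02% of all genes passed), and with the scan batch as a block Neurl1b did not (adjusted p = 0.0557). Neurl1b, a ligand ubiquitin ligase, had 9.01, 8.98 and 8.96 with shEGR2_38.9 on the PA-rich diet and 9.15, 9.16 and 9.23 on control diet, and with PLKO 8.58, 8.69 and 8.74 on the PA-rich diet and 8.05, 8.42 and 8.45 on control diet, so that arrays of this hairpin lay above those of PLKO on either diet, although the PA-rich difference did not pass. With shGAL, 5 passed on control diet, where 17.0% of all genes did (Spen by 0.27, the Deltex gene Dtx2 by 0.60 and the arterial ligand gene Efnb2 by 0.29 as higher, Kat2b by −0.36 and Nrarp by −0.38 as lower), and with the scan batch as a block Spen (adjusted p = 0.0687), Efnb2 (0.116) and Nrarp (0.0553) did not. On the PA-rich diet 5 passed with shGAL (12.4% of all genes), Dtx2 by 0.52 as higher and Lfng by −0.57, Rfng by −0.29, the γ-secretase subunit Ncstn by −0.24 and Kat2a by −0.30 as lower, the last not with the scan batch as a block (adjusted p = 0.136). In the fit of all 24 arrays without a block, Rbpj passed in none of the 22 comparisons. With the scan batch as a block it was lower with shEGR2_40.9 than with PLKO on the PA-rich diet, by −0.29 (adjusted p = 0.0389, against −0.22 with an adjusted p of 0.105 without the block). When the array that stood apart was left out, it was higher with shGAL than with PLKO by 0.22 on the PA-rich diet (adjusted p = 0.0362) and by 0.19 on control diet (adjusted p = 0.0497).

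**Figure D5:**
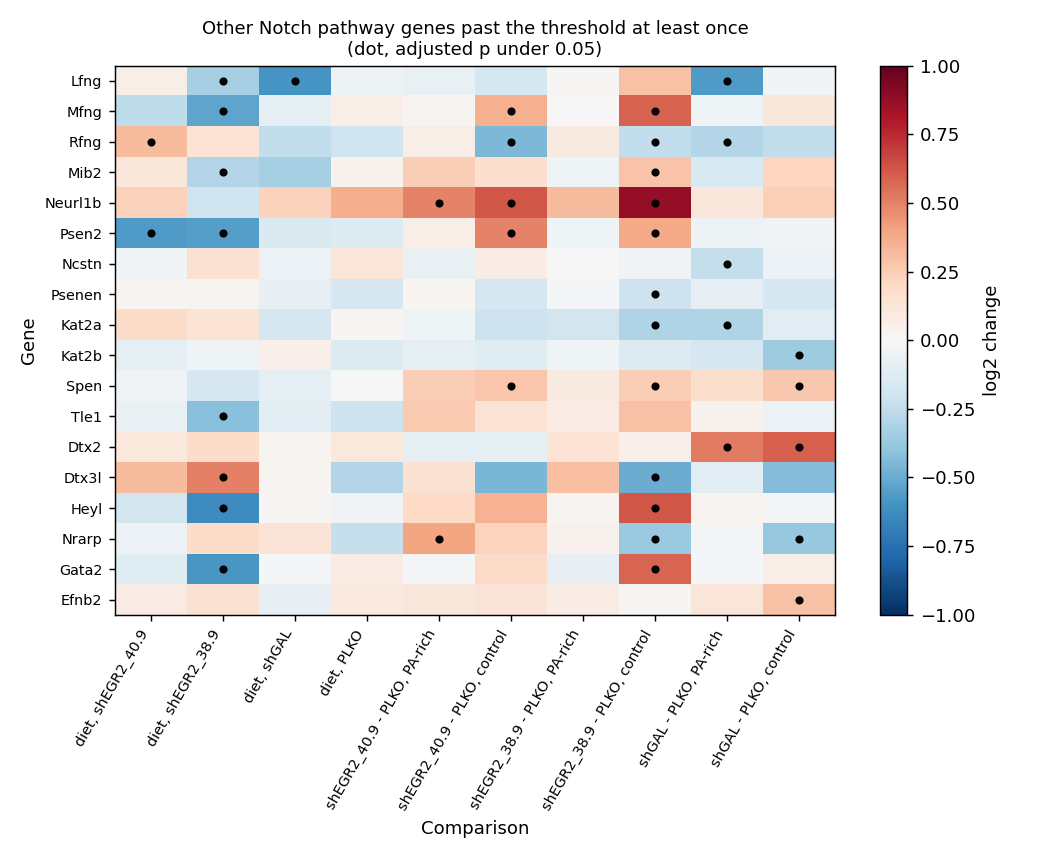
Log2 change (colour, from −1 in blue to 1 in red) of the 18 genes of the wider list that passed the threshold in at least 1 of 10 comparisons (columns: the diet with each hairpin, then each hairpin minus PLKO on each diet); a dot marks an adjusted p under 0.05. The columns of shEGR2_38.9 on control diet and of its diet change have the most dots, where 30.4% and 22.1% of all genes passed. The PLKO diet column has 0 dots, where 1.18% of all genes passed. These counts lie near or below the shares over all genes, and nothing is read from them.

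The genes whose means over the 8 groups ran most like those of Dll1 were Tle2 (r = 0.96), Smim1 (0.94), Vash2 (0.94), Aopep (0.93) and Mrgpre (0.92). Their own means spanned only 0.07 to 0.28 on the log2 scale. For Dll4 they were Bin1 (0.98), Kif3c, Slc1a5, 2610307P16Rik and Cd40 (0.97 each). For Notch4, added after the values had been seen, they were Ccdc141, Rap2a, Wscd1 and Shank3 (0.99 each) and Elk3 (0.98), an ETS-family gene. These are descriptions over 8 points chosen from 11844 genes.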

How the data were processed

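Stromal RNA was hybridised to Affymetrix mouse arrays, 24 in all. The deposited values are log2 values that the authors made by RMA (affy), per the submitters' processing notes, with no version given. An array has no read depth, and the number of arrays is among the limits on the precision. No file column was left unused. Probe sets naming 1 gene symbol in the supplied annotation were kept (551 named several and 15692 none). The probe set with the highest mean stood for each of 17097 genes (7180 had several), and 5253 genes were left out as dim because their mean lay under the level that 40 percent of probe sets do not reach. By Entrez identifier, 99.3% of the symbols matched the supplied gene table.

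The 8 groups were fitted in 1 linear model with limma 3.58.1 in R 4.3.3, with moderated two-sided tests, 16 residual degrees of freedom and p-values adjusted by Benjamini and Hochberg over 11844 genes, threshold 0.05. The 11 main comparisons were the diet with each hairpin and contrasts of the mean of the EGR2 hairpins or of shGAL. Of the 11 others, those of a single EGR2 hairpin against PLKO or shGAL were planned beside the mean. Those between shEGR2_38.9 and shEGR2_40.9 were added after the values had been seen. The members and gene lists were chosen with earlier results of these data known. All members are named in every comparison, every gene of the wider list past the threshold may be, and the 5 genes most like Dll1 and Dll4 were taken by Pearson's r over group means.

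No pair of arrays was identical. The labels' scan batch holds both diets of 2 hairpins and follows the replicate number within a hairpin, so it pairs the diets; residuals of same-numbered arrays correlated by −0.03 to 0.24, with 7 of 12 pairs above 0.1, and the batch was tried as a block (11 residual degrees of freedom). Other alternatives were no filter on dim genes, the mean over probe sets, quantile normalization repeated, a mean-variance trend, only the arrays compared, all probe sets tested, and leaving out each array. Tested on simulated data for the PLKO diet comparison over 11844 genes, the fit called 81 of 100 genes changed by 0.5 and 97 of 100 changed by 1 on the log2 scale, with 9 false calls among 187.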

Additional observations from a re-analysis of the deposited data

Results flagged for a closer look

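The diet effect (PA-rich minus control) of 3 of the 9 genes differed between hairpins by a test of the difference itself, an interaction contrast of the limma model with Benjamini-Hochberg adjustment. For Notch4 the difference was −0.94 between shEGR2_38.9 and shEGR2_40.9, −1.16 between shEGR2_38.9 and PLKO and −1.29 between shEGR2_38.9 and shGAL. For the mean of both EGR2 hairpins, that of Notch4 was −0.69 against PLKO (adjusted p = 0.0499) and −0.82 against shGAL (adjusted p = 0.0154). The difference of this mean from PLKO lost its call in 23 of 30 alternatives. For shEGR2_40.9 alone, Notch4 differed from PLKO by −0.22 (adjusted p = 0.779). For Dll4 the difference was −0.49 between shEGR2_38.9 and shEGR2_40.9, −0.61 between shEGR2_38.9 and PLKO and −0.57 between shEGR2_38.9 and shGAL. Dll1 differed by 0.58 between shEGR2_38.9 and shEGR2_40.9. The other Dll1 differences contain the shGAL fall for which the gene was chosen: 1.09 for shEGR2_38.9 minus shGAL, 0.51 for shEGR2_40.9 minus shGAL, 0.80 for the mean of the EGR2 hairpins minus shGAL and −0.78 for shGAL minus PLKO.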

How the results depend on the processing

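Over the 22 comparisons, 40 changes of the 9 genes passed the threshold, and 26 of them passed it in the same direction under every alternative run. Of these, 6 are differences of Dll1 that contain the shGAL fall for which it was chosen and support nothing; without them the counts are 34 and 20. The rises and falls of Dll1, Dll4 and Notch4 on the PA-rich diet with shEGR2_38.9 are among these, as are Dll4, Notch4 and Hey1 with shEGR2_38.9 minus PLKO on control diet. Labels tie the scan batch to the replicate number within a hairpin. With it as a replicate block, 3 genes passed for the diet with shEGR2_38.9 (Dll1, Dll4 and Notch4), 0 for the difference of the diet effect between the EGR2 hairpins and PLKO, 0 for the EGR2 hairpins minus PLKO on the PA-rich diet and 2 for shGAL minus PLKO on the PA-rich diet (Dll1 and Notch3); among the 11 counts of genes it changed no other by over 1.5 times. In comparisons on single EGR2 hairpins the block ended the calls of Notch1 and Notch3 with shEGR2_38.9 minus PLKO on control diet (adjusted p = 0.185 and 0.0886) and added 3: Notch3 with shEGR2_40.9 minus PLKO on the PA-rich diet (0.43, adjusted p = 0.0203), Notch3 for the difference of the diet effect, shEGR2_38.9 minus PLKO (adjusted p = 0.0461), and Hes1 for that of shEGR2_40.9 minus shGAL (adjusted p = 0.0438). With only the arrays compared in the fit, the counts were 3 for the diet with shEGR2_38.9, 2 for shGAL minus PLKO on the PA-rich diet and 0 for the EGR2 hairpins minus PLKO difference of the diet effect. That last count was also 0 with no filter on dim genes and with all probe sets tested, the last alternative being added after the values were seen. Both settings adjust over more genes, and Notch4 lay at the threshold.

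Leaving out each array in turn, the counts ran from 0 to 1 for the diet with shEGR2_40.9, 3 to 5 with shEGR2_38.9, 1 to 1 with shGAL and 0 to 0 with PLKO. They ran from 0 to 3 for the difference of the diet effect of the EGR2 hairpins minus PLKO, 1 to 3 for that minus shGAL and 1 to 1 for shGAL minus PLKO. For the EGR2 hairpins minus PLKO they ran from 0 to 1 on the PA-rich diet and 3 to 5 on control diet, and for shGAL minus PLKO from 1 to 2 on the PA-rich diet and 0 to 1 on control diet. Signs turned in 3 cases that did not pass with all arrays, both genes with shEGR2_38.9 minus PLKO on control diet. Jag1 gave −0.049 and −0.03 without control replicate 1 or 2 of shEGR2_38.9, within a leave-one-out range of −0.049 to 0.23, and Hes1 gave 0.000387 without replicate 3, within −0.30 to 0.000387. The Notch2 diet change with shEGR2_38.9 lost its call in 27 of 31 alternatives and the Notch4 difference between the EGR2 hairpins and PLKO in 23 of 30. The Dll4 and Notch4 differences between the EGR2 hairpins lost it in 9 of 31 and 8 of 30, with adjusted p of at most 0.0918 and 0.0979. The Notch4 difference between the EGR2 hairpins and shGAL lost it without control replicate 2 of shGAL (−0.67, adjusted p = 0.0752).

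Without control replicate 3 of shEGR2_38.9, calls were also added where that array is not compared: of the wider list, 12 passed for shGAL minus PLKO on control diet, against 5 with it. With the scan batch as a block, 4 of that list passed for the diet with shEGR2_40.9, against 2 without. The cause of the other lost calls was not tested. Arrays of unknown animal origin limit what the p-values cover.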
